A study of Homo sapiens with 30 samples.

Results

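Histone marks were examined at 8 genes of histone acetylation and of Polycomb repression: CREBBP, EP300, KAT2A, HDAC1, HDAC2, HDAC3, NCOR1 and EZH2. They are 8 of the 59788 genes with a position in the gene table, and each was given all peaks that touch its RefSeq span or lie up to 2 kb from either end. H3K4me3 thus had 12 member peaks of 21268 in its table, and H3K27ac had 65 of 63580. The cells were OCI-Ly1, a human line of diffuse large B-cell lymphoma, and the assay was ChIP-seq, in which chromatin is precipitated with an antibody to a mark and its DNA is sequenced. They received JIB-04, a small molecule that inhibits Jumonji histone demethylases, at 150 nM or 500 nM, or the solvent DMSO alone, which served as the control. Each mark had 2 libraries per treatment, so 12 libraries enter here and every mean is over n = 2. The labels do not say whether replicates were separate cultures, and all come from 1 cell line, so p-values measure the spread between these libraries only.

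CREBBP and EP300 are related acetyltransferases that place acetyl groups on histones at promoters and enhancers, and KAT2A is the acetyltransferase of the SAGA and ATAC coactivator complexes. HDAC1 and HDAC2 remove acetyl groups as parts of the SIN3, NuRD and CoREST complexes, while HDAC3 does so together with the corepressor NCOR1. EZH2 is the methyltransferase of Polycomb repressive complex 2, which methylates H3K27, the same lysine that CREBBP and EP300 acetylate. In germinal centre B cells EZH2 and the BCL6 corepressors hold genes silent, and CREBBP, EP300 and EZH2 are recurrently mutated in lymphomas of that origin. H3K4me3 is a methylation mark of active gene starts, and H3K27ac an acetylation mark of active starts and enhancers.

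The starts of these genes differ in sequence, whose relation to the peaks was not tested, and the windows of 5 starts are printed here. Each runs from 250 bases before the annotated start to 30 bases after it, 280 bases in all, 5′ to 3′ on the gene's own strand, which is the minus strand for all 5, from RefSeq on GRCh38.p14. Capitals mark letters of 4 motifs picked after the sequences were seen and searched on both strands. In EZH2 they mark CCAAT on either strand and a match to TTTGGCGC. In CREBBP they mark GGGCGG and a match to GATGGCGG, the latter on the opposite strand, and in NCOR1 they mark GATGGCGG. None of the 4 motifs lies in the KAT2A window, printed because its start falls between peaks of H3K27ac, or in that of the internal NCOR1 start. The EZH2 window is chr7:148884262-148884541, the CREBBP window chr16:3880684-3880963, the first NCOR1 window chr17:16215505-16215784, the NCOR1 window at its internal start chr17:16194610-16194889 and the KAT2A window chr17:42121338-42121617.
EZH2: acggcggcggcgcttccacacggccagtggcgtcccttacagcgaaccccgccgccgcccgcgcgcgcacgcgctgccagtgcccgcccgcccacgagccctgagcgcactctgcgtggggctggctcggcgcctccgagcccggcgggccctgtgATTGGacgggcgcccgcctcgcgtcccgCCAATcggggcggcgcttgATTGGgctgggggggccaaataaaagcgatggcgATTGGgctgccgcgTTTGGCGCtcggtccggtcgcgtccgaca
CREBBP: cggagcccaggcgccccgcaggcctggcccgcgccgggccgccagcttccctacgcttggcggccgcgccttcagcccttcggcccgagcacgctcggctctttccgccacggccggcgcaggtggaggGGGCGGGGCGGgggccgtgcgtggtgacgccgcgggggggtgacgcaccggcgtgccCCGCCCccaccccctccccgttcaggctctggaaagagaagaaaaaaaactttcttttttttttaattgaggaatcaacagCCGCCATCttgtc
NCOR1 first start: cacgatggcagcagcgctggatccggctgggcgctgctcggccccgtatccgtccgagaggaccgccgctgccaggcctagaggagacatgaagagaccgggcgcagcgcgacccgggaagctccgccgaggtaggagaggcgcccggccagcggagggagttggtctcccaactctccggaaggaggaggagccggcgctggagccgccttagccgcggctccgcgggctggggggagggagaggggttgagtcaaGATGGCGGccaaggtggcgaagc
NCOR1 internal start: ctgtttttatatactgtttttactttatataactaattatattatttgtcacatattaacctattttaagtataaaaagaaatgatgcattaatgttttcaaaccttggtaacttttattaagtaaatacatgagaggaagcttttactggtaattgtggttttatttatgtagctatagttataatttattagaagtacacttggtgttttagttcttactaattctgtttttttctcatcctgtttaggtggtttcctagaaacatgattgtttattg
KAT2A: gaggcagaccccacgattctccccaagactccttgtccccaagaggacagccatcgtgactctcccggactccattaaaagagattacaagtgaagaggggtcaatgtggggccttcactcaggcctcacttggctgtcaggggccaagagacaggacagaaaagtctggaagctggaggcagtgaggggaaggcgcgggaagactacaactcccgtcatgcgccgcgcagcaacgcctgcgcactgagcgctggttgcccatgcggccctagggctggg

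EZH2's first start held 45 CG pairs and 4 matches to CCAAT, a number that 0.960% of 35116 RefSeq windows of the same length reach, and 1 match to TTTGGCGC, found in 0.615% of windows. Its 4 matches to GGGCGG, a motif in 44.1% of windows, are not capitalised, and 1 of them lies between 2 of the CCAAT matches. CREBBP's first start held 3 matches to GGGCGG, 2 of which overlap by 1 base, and 1 to GATGGCGG just past the start. GATGGCGG also stands just past the first NCOR1 start, and 1.87% of windows hold it. KAT2A's window held 13 CG pairs, the median of all windows. NCOR1's internal start held 0 CG pairs, as did 4.71% of windows, and its GC share was 24.6% against 71.4% at the first start and a median of 58.2% over all windows. A match is a description of letters and not a binding site.

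Every one of the 8 genes had H3K4me3 over its first annotated start. The 2 annotated starts of CREBBP lay in the same peak, as did those of EZH2, while the CG-free internal start of NCOR1 lay in no peak of either mark. The other 4 H3K4me3 peaks were a 240 bp peak inside HDAC1 and 3 peaks just past the far ends of HDAC1, HDAC3 and KAT2A. These 3 belong as much to neighbouring genes: the one past HDAC1 (chr1:32334305-32336823) covers the start of MARCKSL1, the one past HDAC3 (chr5:141617830-141619479) the start of DIAPH1, and the one past KAT2A (chr17:42111910-42113068) an end of DHX58. Start peaks were shared too, that of HDAC3 with RELL2, that of NCOR1 with PIGL and that of HDAC2 with HDAC2-AS2. Reads in a shared peak cannot be assigned to 1 of the genes.

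H3K27ac covered the first start of 7 genes. The exception was KAT2A, whose start at 42121367 on chromosome 17 fell between 2 H3K27ac peaks (chr17:42120289-42120764 and chr17:42121407-42121848). All 12 H3K4me3 peaks overlapped an H3K27ac peak, whereas 48 of the 65 H3K27ac peaks overlapped no H3K4me3 peak. NCOR1 had 15 H3K27ac peaks, HDAC1 14, EZH2 13, CREBBP 7, EP300 and KAT2A 6 each, HDAC3 3 and HDAC2 1. Reads were spread differently between the start peak and the other member peaks of a gene. Those others include peaks outside the gene span, at MARCKSL1 for HDAC1, at DIAPH1 for HDAC3 and upstream of EP300. Over the 6 libraries the start peak held 26.4% to 28.5% of the H3K27ac member-peak reads of HDAC1 and 35.0% to 44.3% of those of CREBBP. It held 62.2% to 72.8% for EP300, 61.0% to 72.7% for EZH2, 70.4% to 74.4% for NCOR1 and 84.0% to 88.9% for HDAC3. HDAC2 had no H3K27ac peak other than that at its start.

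**Figure D1:**
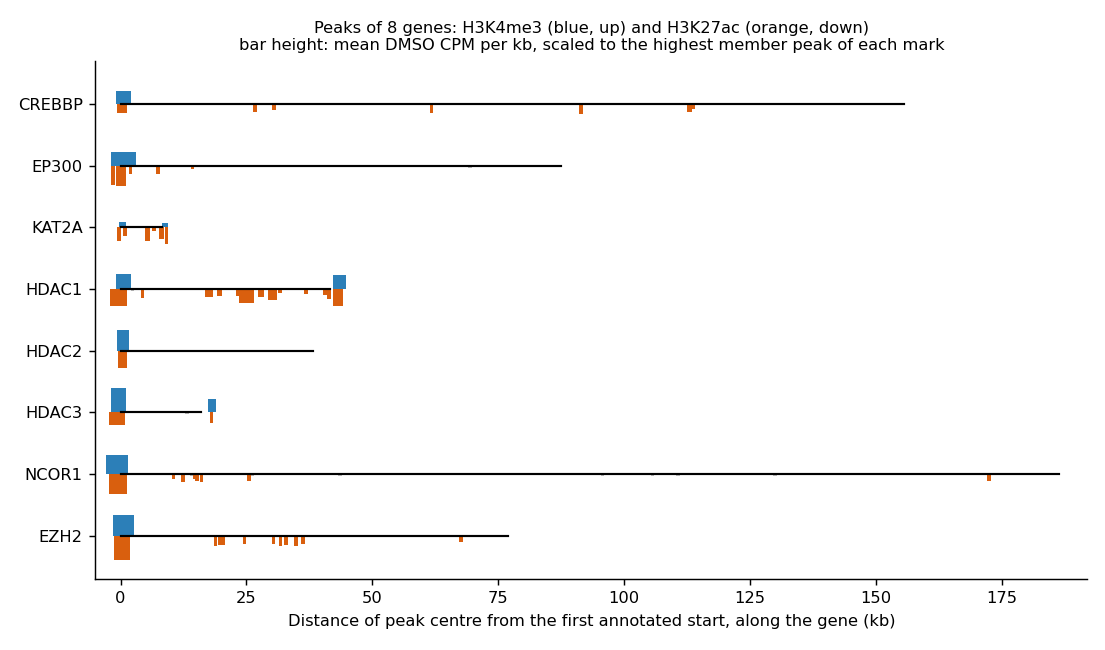
Peaks of the 8 genes along each gene (x axis: kb from the first annotated start; black line: gene span), with H3K4me3 upward in blue and H3K27ac downward in orange. Bar height is the mean DMSO level per kb of peak, scaled to the highest member peak of the mark. Grey bars are peaks below the count filter, and bars are drawn at least 0.7 kb wide. All 8 first starts lie in an H3K4me3 peak and, except in KAT2A, in an H3K27ac peak. The KAT2A start falls between 2 H3K27ac peaks, both of which overlap its H3K4me3 peak.

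In DMSO the start peaks ranged over more than 4-fold in H3K4me3 per kb of peak, in CPM, the count scaled to the library's reads in tested peaks. HDAC3 stood highest at 59.0 ± 0.534 CPM per kb (SD, n = 2), followed by EZH2 at 49.4 ± 0.662 and HDAC2 at 49.4 ± 0.393, which did not differ beyond their spread. NCOR1 had 45.2 ± 0.998, HDAC1 34.9 ± 1.70, EP300 33.9 ± 0.0324 and CREBBP 30.1 ± 1.87, and in this run HDAC1 and EP300 overlapped. KAT2A was lowest at 13.5 ± 0.0502 CPM per kb. The order of H3K27ac per kb was another one: EZH2 led with 27.8 ± 2.30, then came EP300 with 23.4 ± 0.885, NCOR1 with 22.5 ± 0.921, HDAC2 with 19.3 ± 0.173, HDAC1 with 19.2 ± 0.0900, HDAC3 with 14.7 ± 0.887 and CREBBP with 10.1 ± 0.692. Here EP300 and NCOR1 overlapped, as did HDAC2 and HDAC1. Per kb of peak, HDAC3 thus had the most H3K4me3 but was sixth of 7 in H3K27ac. Peak widths differ between genes and marks, and the order was another one in CPM of the whole peak. There EZH2 had more H3K4me3 than HDAC3, a DMSO mean of 206 against 182 CPM. In H3K27ac HDAC3 then had 46.4 CPM, between HDAC1 at 62.8 and EP300 at 46.3.

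The libraries carried 9686420 to 12327122 counts in H3K4me3 peaks and 4360660 to 5410292 in H3K27ac peaks. All 8 fixed B cell markers had peaks of both marks, while 3 of 4 myeloid markers and all 3 markers of other lineages had none. Of 4 T cell markers, 3 had an H3K4me3 peak and 3 an H3K27ac peak, with at most 780 H3K4me3 reads in DMSO against 1238 to 11200 at the B cell markers. The 150 nM H3K4me3 replicates differed by less than the sampling noise, with a chi-square per degree of freedom of 0.941 where counting noise alone gives 1, and so did DMSO replicate 1 and 150 nM replicate 1 at 0.962. Because libraries of different treatments agreed as closely, the 150 nM libraries were kept as 2 samples, and counts with the pair summed as 1 sample stand beside the results. In H3K27ac the 150 nM replicates stood further apart, at 2.26, than DMSO replicate 1 and 150 nM replicate 1, at 1.30. The DMSO replicates gave 1.37 and the 500 nM replicates 1.29. Comparisons of H3K27ac with 150 nM thus rest on the 2 least alike replicates. Scaling to reads in peaks cannot show a change shared by all peaks.

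At 500 nM, H3K4me3 fell at the start of the deacetylase gene HDAC1, at the start of the corepressor gene NCOR1, and in the peaks past the ends of HDAC1 and KAT2A that touch MARCKSL1 and DHX58. Those were 4 of the 12 member peaks, and 0 rose, by edgeR's quasi-likelihood test at an adjusted p under 0.05 over all 20402 tested peaks. The share of 33.3% called compares with 39.4% of all tested peaks, and that of 33.3% lower with 18.7%. The DESeq2 Wald test called 1 of them, the HDAC1 start. The falls were small apart from the one at DHX58, with 500 nM means at 85.6%, 92.4%, 88.9% and 68.4% of the DMSO means in the order named.

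HDAC1 encodes a deacetylase of several corepressor complexes, and its start peak (chr1:32291280-32294239) held 99.9 and 107 CPM with DMSO, 101 and 100.3 CPM with 150 nM and 86.6 and 90.6 CPM with 500 nM. Both 500 nM libraries lay below the other 4. The log2 fold change from DMSO was −0.22 ± 0.044 (SE) with an edgeR adjusted p of 4.03e-05, and the call held under all 15 alternatives run on this peak. The peak past its end at MARCKSL1 held 81.0 and 83.1 CPM with DMSO, 83.0 and 82.3 with 150 nM and 73.5 and 72.4 with 500 nM, again with both 500 nM libraries lowest. Its change was −0.17 ± 0.047 with an edgeR adjusted p of 0.00321. The 240 bp peak inside HDAC1 had 4 and 11 reads with DMSO, 14 and 10 with 150 nM and 4 and 1 with 500 nM, with groups that overlapped between DMSO and 500 nM. At this depth its change from DMSO of −1.49 ± 0.71 did not pass (edgeR adjusted p = 0.0916), while without DMSO replicate 1 it was −2.17 and passed (adjusted p = 0.0408).

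HDAC2, the close relative of HDAC1, held 122 and 121 CPM with DMSO, 116 and 117 with 150 nM and 115 and 114 with 500 nM over its start (chr6:113969388-113971854). Both treated groups lay below DMSO, and the 500 nM change of −0.089 ± 0.039 had an edgeR adjusted p of 0.0641. HDAC3 gave another picture, with 180.4 and 183 CPM with DMSO, 181 and 186 with 150 nM and 174 and 189 with 500 nM over its start (chr5:141635742-141638816). The 500 nM libraries lay on either side of all others. Its difference from DMSO was −0.0013, with a 95% interval of −0.072 to 0.069 on the log2 scale that leaves out a fall of the size measured at HDAC1. Whether the 2 genes differed in their change was not tested. The peak past HDAC3 at DIAPH1 also overlapped between groups, at 50.9 and 57.0 CPM in DMSO against 53.6 and 56.8 at 500 nM.

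NCOR1 encodes the corepressor that carries and activates HDAC3. Its start peak (chr17:16213962-16218382), shared with PIGL, held 197 and 203 CPM with DMSO, 205 and 202 with 150 nM and 184 and 185 with 500 nM, with both 500 nM libraries lowest. The change of −0.11 ± 0.032 had an edgeR adjusted p of 0.00430. With loess offsets, which remove the trend of the fold change with peak abundance, it was −0.037 with an adjusted p of 0.393.

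Among the acetyltransferases, CREBBP held 87.5 and 95.6 CPM with DMSO, 97.5 and 94.0 with 150 nM and 83.2 and 86.3 with 500 nM over its start (chr16:3878604-3881647). The 500 nM libraries were lowest, though DMSO replicate 1 stood near them, and the change of −0.11 ± 0.046 had an edgeR adjusted p of 0.0575. Without DMSO replicate 1 it was −0.18 with an adjusted p of 0.00965, and without 500 nM replicate 2 it was −0.13 with 0.0488. EP300 held 167 and 167 CPM with DMSO, 170.1 and 165 with 150 nM and 160.01 and 155 with 500 nM over its start (chr22:41090792-41095705). Here too both 500 nM libraries were lowest, and the change of −0.083 ± 0.035 had an edgeR adjusted p of 0.0527. It passed with no filter on low counts (−0.086, adjusted p = 0.0414), with the replicate number as a block (−0.083, 0.0413) and without 500 nM replicate 1 (−0.11, 0.0374).

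KAT2A, the weakest of the 8 starts, held 17.4 and 17.5 CPM with DMSO, 18.7 and 16.1 with 150 nM and 14.3 and 15.5 with 500 nM (chr17:42120332-42121619). Both 500 nM libraries were below the others, and the change of −0.23 ± 0.11 missed the threshold (edgeR adjusted p = 0.0918), while with loess offsets it was −0.35 and passed (adjusted p = 0.0105). The peak past its end at DHX58, a gene for an RNA helicase of the antiviral response, held 13.1 and 11.9 CPM with DMSO, 14.2 and 14.3 with 150 nM and 8.84 and 8.27 with 500 nM. The 3 groups did not overlap, with 150 nM highest and 500 nM lowest. Its change from DMSO, −0.55 ± 0.14, had an edgeR adjusted p of 0.00106 (DESeq2 adjusted p = 0.0550).

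EZH2, the catalytic subunit of Polycomb repressive complex 2, had the highest CPM of the 12 peaks over its start (chr7:148881653-148885820), with 204 and 208 CPM with DMSO, 208 and 207 with 150 nM and 195 and 197 with 500 nM. The 500 nM libraries lay below the other 4, by a log2 change from DMSO of −0.071 ± 0.032 that did not pass (edgeR adjusted p = 0.0688). Its 95% interval ran from −0.13 to −0.0074, and the 500 nM mean was 95.2% of that with DMSO.

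Of the 12 member peaks 10 had an unadjusted p under 0.05, all lower (83.3% against 47.1% of all tested peaks in either direction). In CPM, 9 had both 500 nM libraries below both DMSO libraries, against 34.3% of all tested peaks, and 0 had both above. The median log2 change of the members was −0.11 and that of all tested peaks −0.0063. The members are mostly strong peaks: 6 of them lay in the highest of 5 equal abundance groups, where the median over all peaks was −0.059 with 34.2% called lower and 4.80% called higher, and 3 lay in the next group with a median of −0.045. How far abundance accounts for the members' falls was not tested beyond the loess fit, which called 5 members lower: 3 of the 4 above, the KAT2A start and the 240 bp peak of HDAC1.

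**Figure D2:**
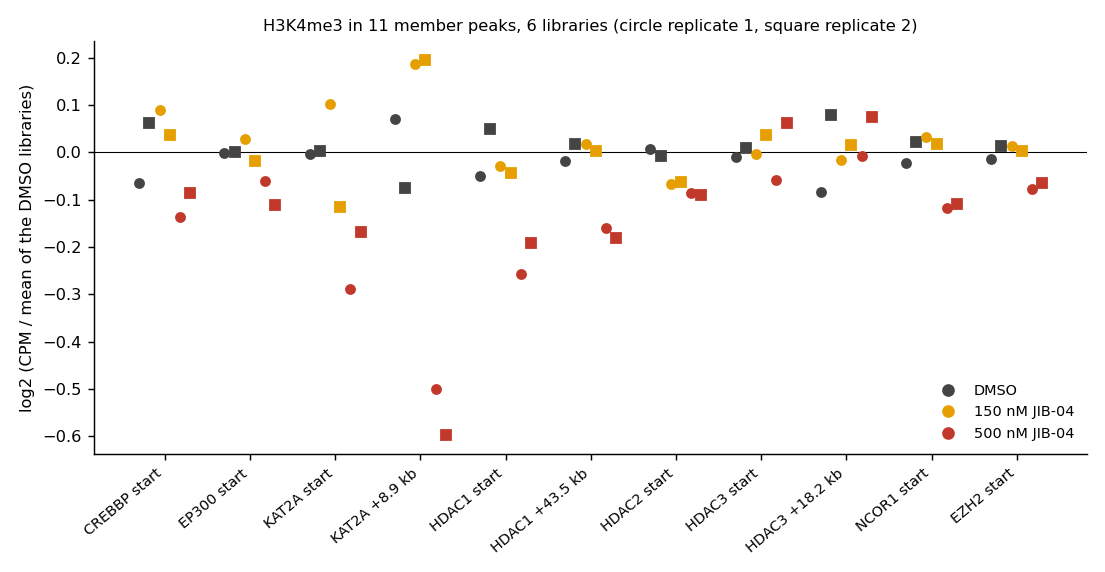
H3K4me3 in the 11 member peaks with a mean of at least 50 reads (y axis: log2 of CPM over the mean of the DMSO libraries; x axis: peaks, named by gene and, away from the start, by distance in kb). Each point is 1 library; the 500 nM points lie below both DMSO points in 9 peaks and on either side of them at the HDAC3 start.

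At 150 nM none of the 12 H3K4me3 peaks was called against DMSO by edgeR's adjusted p (0 of 12, and 0% of all 20402 tested peaks), 0 had an unadjusted p under 0.05 against 4.66% of all peaks, and DESeq2 called 0. The changes of the 8 start peaks lay between −0.065 at HDAC2 and 0.070 at CREBBP. The HDAC1 start changed by −0.032, with a 95% interval of −0.12 to 0.054, which leaves out the fall measured at 500 nM. For EZH2 the interval at 150 nM was −0.053 to 0.072, and for NCOR1 −0.036 to 0.090.

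Set against 150 nM in place of DMSO, 500 nM gave lower H3K4me3 at 8 of the 12 peaks and higher at 0, a share of 66.7% against 39.2% of all tested peaks called and 18.6% called lower. The 500 nM libraries are the same in both comparisons, so the comparisons share samples. In addition to the 4 peaks above, the starts of CREBBP, EP300 and EZH2 and the 240 bp peak of HDAC1 passed. CREBBP fell by 0.18 on the log2 scale (SE 0.046, edgeR adjusted p = 0.00142), and EP300 and EZH2 by 0.089 and 0.080 (edgeR adjusted p = 0.0367 and 0.0382). The starts of HDAC2, HDAC3 and KAT2A did not pass, with log2 changes of −0.024, −0.019 and −0.23.

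The DHX58 peak past KAT2A had the largest of the well-covered changes against 150 nM, −0.73 ± 0.14 with an edgeR adjusted p of 1.16e-05, and its call held under all 15 alternatives run on it. The HDAC1 start fell by 0.19 (adjusted p = 0.000436 in edgeR), its MARCKSL1 peak by 0.18 (0.00164) and the NCOR1 start by 0.14 (0.000423). With loess offsets the NCOR1 call was lost at −0.062 (edgeR adjusted p = 0.116), and the KAT2A start passed at −0.35 (adjusted p = 0.00976). The calls of EP300 and EZH2 were each lost under 8 of 15 alternatives, among them a mean count of at least 50 and loess offsets, under which the changes were −0.020 and −0.0018 (adjusted p = 0.708 and 0.974). With the 150 nM pair summed as 1 sample, 6 of the 12 peaks were called, and without 150 nM replicate 1, 5. The 240 bp HDAC1 peak, with 1 to 14 reads a library, lost its call without 150 nM replicate 1 (−1.96, adjusted p = 0.0995) and without 500 nM replicate 2 (−1.66, adjusted p = 0.0696). DESeq2 called 2 of the 12, NCOR1's start and the DHX58 peak.

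**Figure D3:**
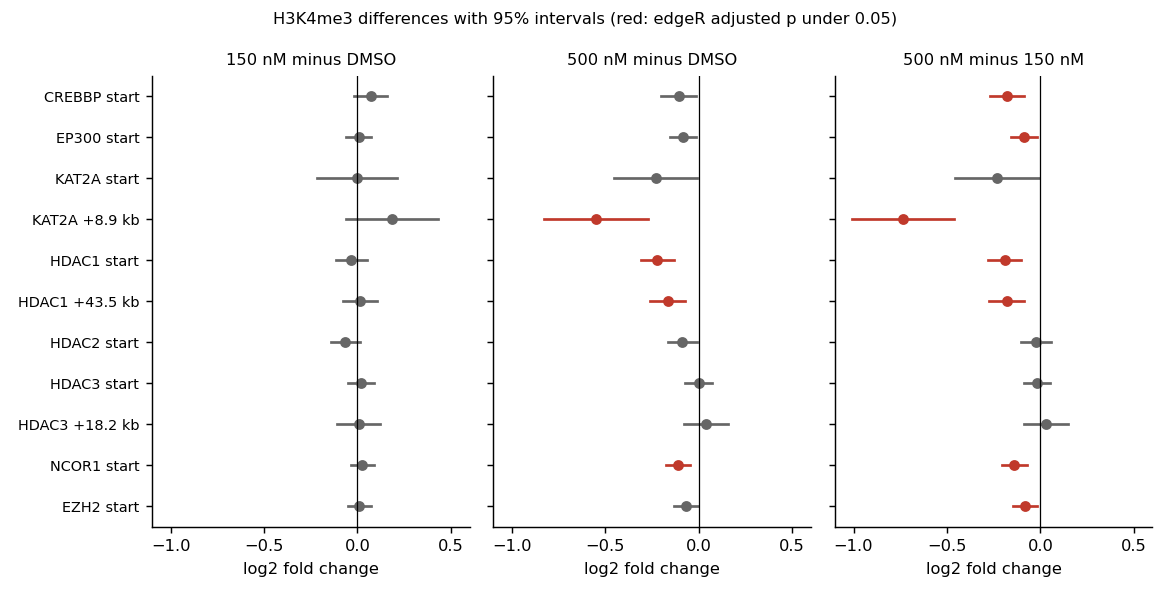
log2 fold changes of H3K4me3 (x axis) with 95% intervals for the 11 member peaks with at least 50 reads on average (y axis) in the 3 comparisons, red where edgeR's adjusted p is under 0.05. No interval is red for 150 nM against DMSO, 4 are for 500 nM against DMSO and 7 for 500 nM against 150 nM, all of them below 0.

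H3K27ac gave no call at any member peak. Of the 65 peaks 52 passed the filter on low counts, while 13 with a mean of 3.17 to 9.33 reads did not, 7 of them in NCOR1. By edgeR, 0 of the 52 tested peaks had an adjusted p under 0.05 at 500 nM against DMSO, where 0.923% of all 54037 tested peaks did, at 150 nM against DMSO (0.00185%) or at 500 nM against 150 nM (1.27%). DESeq2 called 0 in each. An unadjusted p under 0.05 was reached by 7 members at 500 nM against DMSO, 4 higher and 3 lower, which is 13.5% against 11.5% of all peaks, by 2 at 150 nM against DMSO (3.85% against 3.94%) and by 6 at 500 nM against 150 nM (11.5% against 10.2%). The median tested member peak had 22.9 reads against 1033 for H3K4me3, so changes of the size seen for H3K4me3 were not detectable at most H3K27ac peaks.

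At the starts the H3K27ac intervals were wide. EP300 held 45.1 and 47.5 CPM with DMSO, 48.2 and 54.9 with 150 nM and 51.1 and 59.6 with 500 nM (chr22:41091691-41093667). Both 500 nM libraries lay above both DMSO libraries, and the change of 0.26 had a 95% interval of 0.0037 to 0.51 and an edgeR adjusted p of 0.427. In the next peak upstream of it (chr22:41090649-41091487) DMSO and 500 nM stood in the opposite order. It held 17.5 and 19.5 CPM in DMSO and 14.7 and 13.3 at 500 nM (edgeR adjusted p = 0.414). The 150 nM libraries, at 13.2 and 18.1 CPM, overlapped both groups. EZH2's start, the strongest of the 7 in H3K27ac, held 78.9 and 88.6 CPM with DMSO, 71.2 and 82.9 with 150 nM and 87.2 and 88.0 with 500 nM, and its groups overlapped. Its change at 500 nM was 0.063, with an interval of −0.15 to 0.28.

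CREBBP's start held 18.4 and 20.3 CPM of H3K27ac with DMSO, 17.2 and 16.8 with 150 nM and 17.1 and 21.1 with 500 nM. The replicates at 500 nM lay on either side of DMSO, and the change was −0.019 ± 0.18. HDAC1's start held 63.0 and 62.6 CPM with DMSO, 62.0 and 64.1 with 150 nM and 58.2 and 55.1 with 500 nM. NCOR1's start held 78.2 and 82.8 CPM with DMSO, 79.0 and 82.6 with 150 nM and 76.5 and 70.01 with 500 nM. In both the 500 nM libraries were the lowest of the 6, as they were for H3K4me3, with changes of −0.15 ± 0.12 and −0.14 ± 0.11 whose edgeR adjusted p were 0.679 and 0.681.

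HDAC2's start, with 32.9 and 33.3 CPM with DMSO, 33.8 and 35.4 with 150 nM and 33.5 and 34.8 with 500 nM, varied little, by 0.046 ± 0.14 at 500 nM. HDAC3's start held 44.4 and 48.3 CPM with DMSO, 42.3 and 54.5 with 150 nM and 52.4 and 53.8 with 500 nM. The 500 nM libraries were above both of DMSO, but the 150 nM replicates spanned the whole range, and the change of 0.19 ± 0.13 had an edgeR adjusted p of 0.600. On either side of the KAT2A start, the upstream H3K27ac peak held 6.67 and 7.02 CPM with DMSO, 5.10 and 4.90 with 150 nM and 5.09 and 8.21 with 500 nM, and the downstream one 4.37 and 4.61, then 6.16 and 3.96, then 3.39 and 4.69. Groups overlapped between DMSO and 500 nM in both.

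The smallest adjusted p of any member H3K27ac peak belonged to a peak inside EZH2 (chr7:148863559-148864927), singled out after its values were seen. It held 59 and 70 reads with DMSO, 52 and 51 with 150 nM and 44 and 45 with 500 nM, or 13.6 and 14.0, 11.05 and 9.61, and 8.29 and 8.80 CPM. The 3 groups did not overlap and the level was lower at the higher dose. The change at 500 nM was −0.69 ± 0.22 with an edgeR adjusted p of 0.137, which ranged from 0.0263 with only the 4 libraries of the contrast to 0.855 in DESeq2. The neighbouring peak (chr7:148865225-148865696) held 6.44 and 4.21 CPM in DMSO and 3.39 and 2.35 at 500 nM, a change of −0.87 ± 0.37 (edgeR adjusted p = 0.329). EZH2's start, about 20.0 kb away, had no such order.

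At the end of KAT2A the marks gave different values, a difference that was not tested. Where H3K4me3 fell by 0.55 on the log2 scale at 500 nM, the overlapping H3K27ac peaks held 10.6 and 9.83 CPM in DMSO against 11.7 and 7.43 at 500 nM (chr17:42112002-42112549), and 12.4 and 14.2 against 17.5 and 18.4 (chr17:42112708-42113682). The first overlapped between groups, and in the second both 500 nM libraries were higher, by 0.42 ± 0.19 with an edgeR adjusted p of 0.378. The peaks were called separately for each mark and have other bounds. The labels name no batch. A split of H3K27ac DMSO replicate 2 and 150 nM replicate 2 from the other 4 libraries was seen earlier on unplaced contigs. A term for that pair left 0 member peaks called in each comparison. As 0 were called without the term too, this decides nothing about the split. Outside that pair DMSO has 1 library, so no replicated comparison with DMSO can be made there.

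**Figure D4:**
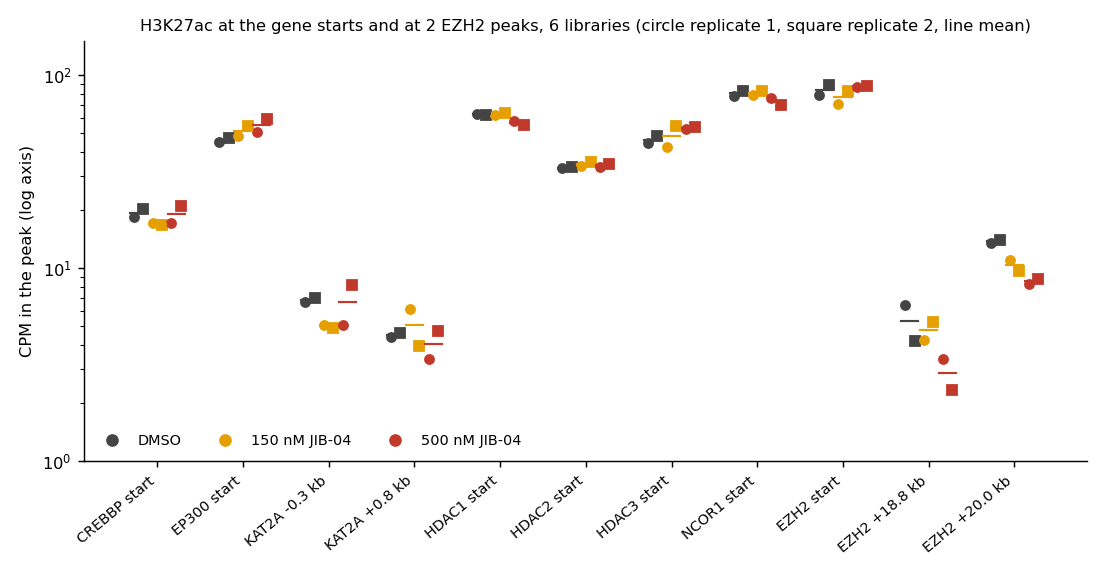
H3K27ac (y axis: CPM, log scale) at the 7 covered gene starts, at the peaks flanking the KAT2A start and at 2 peaks inside EZH2 about 19 and 20.0 kb from its start (x axis), 1 point per library and a line for each group mean. The groups fall in order of dose at the EZH2 peak at 20.0 kb, from 13.6 and 14.0 CPM in DMSO to 8.29 and 8.80 at 500 nM.

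**Figure D5:**
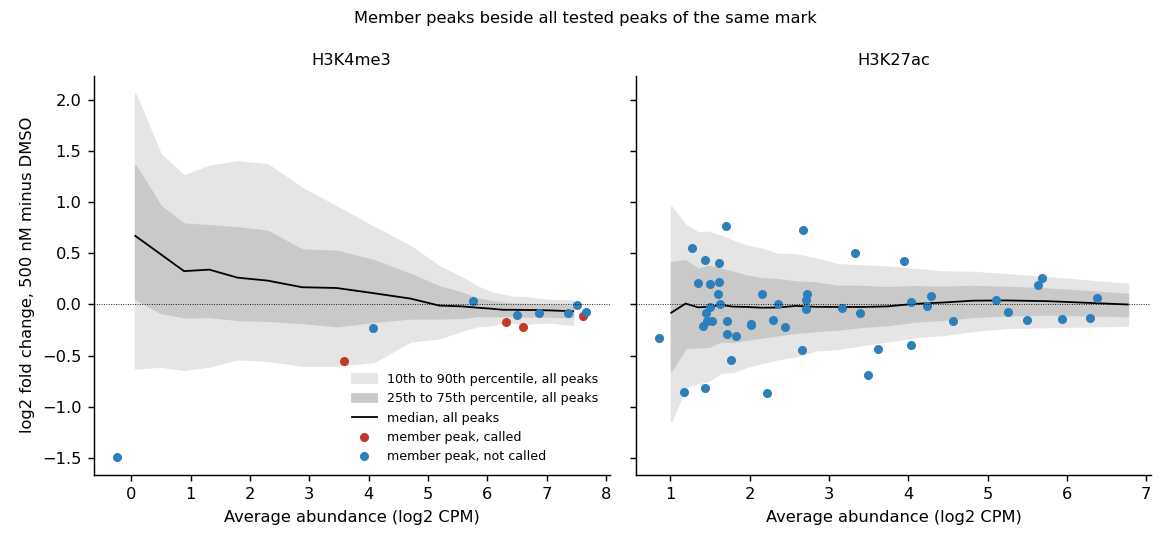
log2 fold change at 500 nM against DMSO (y axis) by average abundance (x axis, log2 CPM) for H3K4me3, left, and H3K27ac, right: grey bands and black line give percentiles and median of all tested peaks in 20 bins, and points are the member peaks, red where called. The 4 called H3K4me3 members lie below the median line, and no H3K27ac member is red.

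The other genes of these pathways were read at their start peaks, 69 of 72 with H3K4me3 and 58 of 72 with H3K27ac. At 500 nM against DMSO 18 of the 69 fell in H3K4me3 and 3 rose (30.4% against 39.4% of all tested peaks). Their median change was −0.054 against −0.0063 over all tested peaks, and 0 were called at 150 nM. In the highest of 5 equal abundance groups of all peaks the median was −0.059 with 34.2% called lower. In the next group it was −0.045 with 22.7%. The pathway starts were not matched to all peaks by abundance. In H3K27ac 0 of 58 were called at 500 nM against DMSO, against 0.923% of all tested peaks. An unadjusted p under 0.05 was reached by 9 of the 58, where 11.5% of all tested peaks reached it, and the median change was 0.095 against −0.0040 over all.

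Beside EZH2 stand KDM6A and KDM6B, the H3K27 demethylases that remove the mark EZH2 places and that are themselves Jumonji enzymes. H3K4me3 over both starts fell at 500 nM against DMSO, 2 of 2 where 18.7% of all tested peaks were called lower. The KDM6B start held 180.0 and 188 CPM of H3K4me3 in DMSO and 142 and 135 at 500 nM (log2 change −0.41, edgeR adjusted p = 1.62e-14), and KDM6A changed by −0.22 (8.07e-06). KDM6B was also the only pathway gene called in H3K27ac, higher at 500 nM than at 150 nM by 0.40 (edgeR adjusted p = 0.0119). That was 1 of 58 tested pathway starts in this comparison, or 1.72% against 1.27% of all tested peaks. The next list held 10 starts, of partners of EZH2 in Polycomb repressive complex 2 and of its relative EZH1. In H3K4me3 at 500 nM against DMSO 2 of them fell (20.0% against 18.7% of all tested peaks) and 0 rose. AEBP2 fell by 0.16 and MTF2 by 0.15, both accessory subunits that guide the complex to chromatin.

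Over all tested H3K4me3 peaks 39.4% were called in either direction at 500 nM against DMSO and 18.7% were called lower. The lists are short, and their counts are given beside these shares as a description. Of 11 other deacetylases 1 fell (9.09%), the class IIa enzyme HDAC7, from 146 and 146 CPM in DMSO to 97.5 and 94.1 at 500 nM (log2 change −0.61, edgeR adjusted p = 1.25e-19). The estimate was larger than that of any start peak of the 8 genes, which changed by at most −0.23. Of 16 covered partners of HDAC1, HDAC2 and HDAC3, 3 fell and 1 rose (25% called): the SIN3 complex genes SAP30 and SIN3A changed by −0.42 and −0.12, and the NuRD gene MTA3 by 0.21. Among 8 other acetyltransferases 4 fell and 1 rose (62.5% called), with NCOA1 at −0.22, KAT2B, the close relative of KAT2A, at −0.20, and NCOA3 at 0.16. Of 13 covered partners of KAT2A 4 fell (30.8%), including ZZZ3 at −0.17 and ATXN7 at −0.15.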

How the data were processed

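The submitters deposited, per the file headers, raw read counts per consensus peak of H3K4me3 and H3K27ac, counted by the authors with featureCounts 2.0.1 at a minimum overlap fraction of 0.2 of a read and without regard to strand. The submitters' processing notes name GRCh38, Trim Galore 0.6.7, BWA 0.7.17-r1188, Picard 2.27.4, MACS2 2.2.7.1, deepTools 3.5.1 and edgeR 3.42.4. Paired-read counting is set in the headers although the labels give single 50 bp reads, so it is not settled whether fragments or reads were counted. Reads carry no molecular identifiers, so counting error is a lower limit. Coordinates are the deposited ones with 1 added to the start. Gene positions and promoter sequences came from RefSeq tables of GRCh38.p14, and all 8 genes matched by symbol. Exon, intron and UTR positions were not analysed here, nor were the 18 libraries of input, H3K9me2 and H3K9me3.

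Each mark was fitted once over its 6 libraries in edgeR 4.0.16 (R 4.3.3): filterByExpr by group, TMM, glmQLFit and glmQLFTest, and Benjamini-Hochberg adjustment over all tested peaks of the mark at 0.05. CPM are relative to reads in tested peaks after TMM, and standard errors were derived from the F statistic. The step was tested on simulated counts. Values in every library are given for each gene's start peak and each called peak; of the pathway lists, the 2 smallest adjusted p in each direction are named, and 1 list, which the pathway totals include, is not reported here by itself. A start missing from the promoter table, for 6 pathway genes, was taken as the gene end with more DMSO H3K4me3. The members and lists were chosen with earlier results of these data known. Alternatives were other size factors, total counts, loess offsets (limma 3.58.1), no filter, a mean count of at least 50, a replicate block, 4 libraries only, leaving out each library, the Wald test of DESeq2 1.42.0, an H3K27ac batch term, membership by gene span alone or within 10 kb, and, added after the library pairs were seen, the 150 nM H3K4me3 libraries summed. Figures were drawn with matplotlib 3.10.9.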

Additional observations from a re-analysis of the deposited data

How the results depend on the processing

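No call of a member peak changed direction under any alternative run. For H3K4me3 at 500 nM against DMSO, where 4 member peaks were called, DESeq2 called 1, membership by gene span alone left 2, and leaving out single libraries gave 4 to 6. For 500 nM against 150 nM, with 8 called, DESeq2 called 2, a mean count of at least 50 gave 5, and leaving out single libraries gave 5 to 8, with 5 without 150 nM replicate 1. For H3K27ac at 500 nM against DMSO, with 0 called, the 4 libraries of the contrast alone gave 1, and leaving out single libraries 0 to 1, the 1 arising when either 150 nM library was left out; the peak was that inside EZH2. The other counts stayed within 1.5 times of those reported. Where leaving out a library left a group with 1 sample, that sample was assumed to vary like the other groups. Same-numbered libraries showed correlations of their deviations between 0.0026 and 0.13, and only 1 of 6 pairs was over 0.1, so the numbers do not show pairing; with the replicate number as a block, 5 and 8 H3K4me3 peaks were called in these comparisons and 0 of H3K27ac. Tested H3K27ac member peaks held 7 to 412 reads on average, which limits what they can show.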
